A study of Sus scrofa with 5 samples.

Results

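The contractile genes of smooth muscle were followed in ovarian follicles of female pigs of the Indian Ghoongroo breed, a domestic breed of Sus scrofa. They are 10 genes chosen by name (ACTA2, ACTG2, MYH11, MYL9, MYLK, TAGLN, CNN1, LMOD1, DES and SYNPO2), out of 30822 genes listed in each file, and each name matched exactly 1 gene. RNA sequencing was available from 3 libraries of large follicles and 2 libraries of small follicles, and the design compares the 2 sizes. No treatment or genotype separates the groups. The labels call the replicates biological but say nothing of follicle diameter, follicles per library or pooling of animals, so the tests below measure only the spread between these libraries.

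Smooth muscle shortens when calcium and calmodulin activate myosin light chain kinase (MYLK), which phosphorylates the regulatory light chain MYL9 and lets the heavy chain MYH11 pull on filaments of the smooth muscle actins ACTA2 and ACTG2. Transgelin (TAGLN) and calponin 1 (CNN1) bind those filaments, leiomodin 1 (LMOD1) starts new ones, and desmin (DES) and synaptopodin 2 (SYNPO2) link them to the cell's anchoring points. In the ovary such cells form the theca externa, the outer contractile sheath of the follicle, and the walls of its arterioles. A library of a whole follicle mixes both with granulosa cells, steroid-making theca interna and stroma, so a difference in level can come from fewer or more such cells or from less or more RNA per cell, which cannot be told apart in bulk RNA.

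Each value is an FPKM, that is, a number of sequenced fragments scaled to the length of the gene and the depth of the library. Levels of different genes can be compared per length only as far as the length used for each gene is right. Library totals worked back from the FPKM steps ran from 9523739 to 11507527 fragments, and 11784 to 13064 genes per library reached an FPKM of 1. A floor of 3 fragments in a gene of 2000 bases corresponds to 0.130 to 0.158 FPKM, counting error only. Large follicle replicate 2 and small follicle replicate 1 had the fewest genes at 1 FPKM in their groups. FPKM sums differed between libraries, from 560611 in small follicle replicate 2 to 706519 in large follicle replicate 1, so values are also given as a share of that sum where this changes what they show.

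All 10 genes were well above the floor in all 5 libraries and all entered the test, which needed 1 FPKM in 2 libraries. ACTA2 had the highest mean FPKM, at rank 73 of the 30822 genes, followed by TAGLN at rank 97, MYL9 at rank 181 and ACTG2 at rank 269. SYNPO2 was the least abundant, at rank 6268. The summed FPKM of the 10 genes was 4558, 5496 and 4347 in large follicle replicates 1 to 3 and 3947 and 3903 in small follicle replicates 1 and 2. That sum did not overlap between the groups, but as a share of each library's FPKM sum it did, at 0.645% to 0.808% in large and 0.594% to 0.696% in small follicles. ACTA2 and TAGLN together made up 71.9% to 77.6% of the sum in large and 66.4% to 67.6% in small follicles, so the sum is mostly a measure of those 2 genes.

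The values of the 10 genes did not all go in the same direction between the follicle sizes, and none was called. ACTA2, TAGLN and CNN1 had higher values in every large follicle library than in both small ones, whereas MYH11 and LMOD1 had lower values in every large follicle library. The other 5 overlapped. As a share of each library's FPKM sum TAGLN, MYH11 and LMOD1 stayed apart, but ACTA2 and CNN1 overlapped. A gene was called where its limma p, adjusted over all genes by the Benjamini-Hochberg method, was under 0.05. The count called among the 10 was 0, against 0.978% of the 13087 genes tested. Limma voom on fragments worked back from the FPKM steps also called 0. At an unadjusted limma p under 0.05 there were 2 of 10, MYH11 and LMOD1, against 10.4% of all genes. Values that did not overlap with large above small were found for 3 of 10, against 10.9% of all genes, and with large below small for 2 of 10, against 15.2%. The median log2 fold change of the 10 genes was 0.04, beside -0.08 over all genes tested. Scaling the libraries to a common FPKM sum shifted the median over all genes to -0.19 and that of the 10 genes to -0.07, with each single gene keeping its direction. Over all genes 70 were called higher and 58 lower in large follicles (0.535% and 0.443% of those tested), and 66 higher and 86 lower under that scaling.

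**Figure D1:**
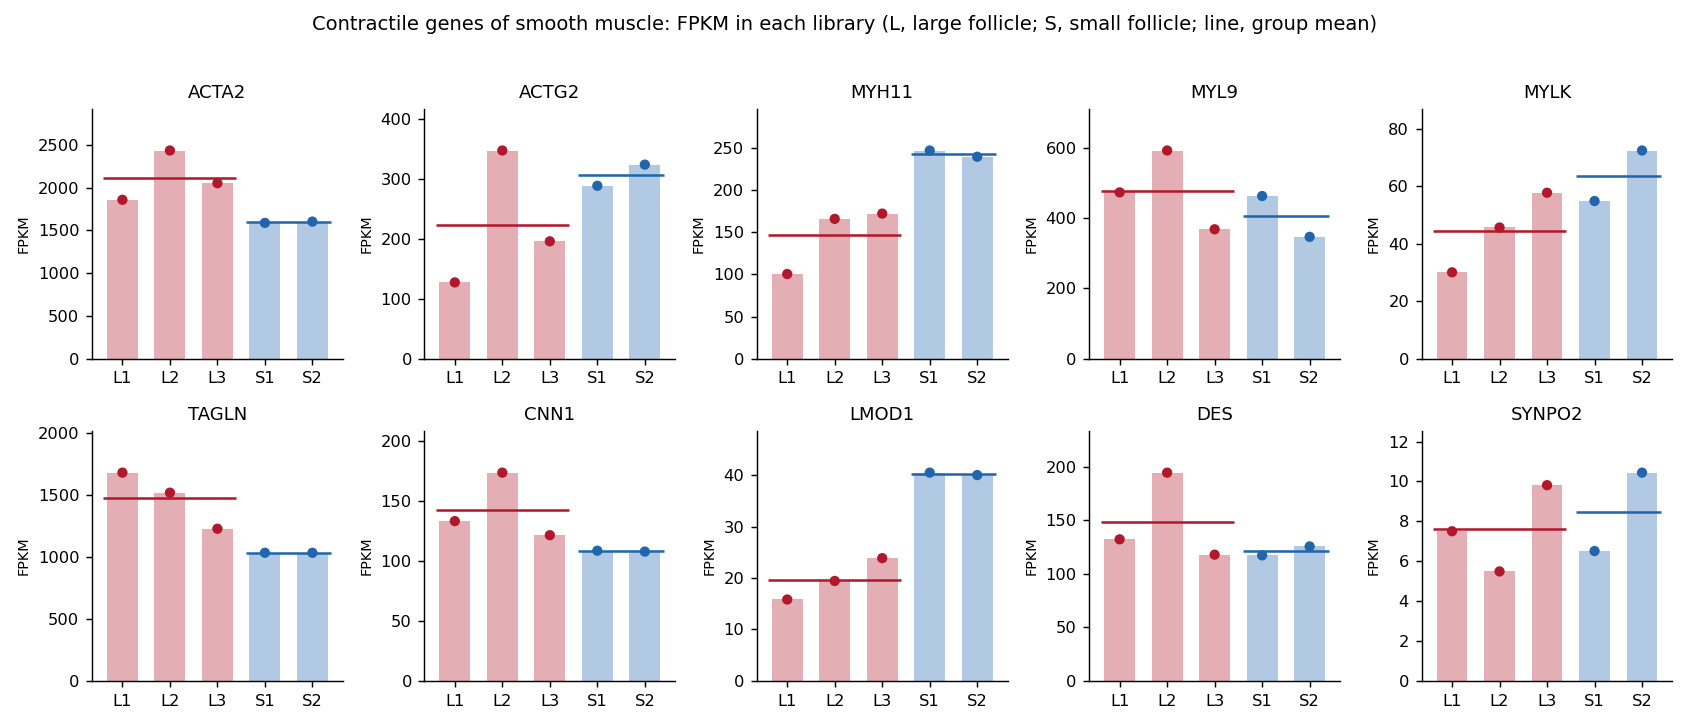
FPKM (vertical axes, linear from 0) of the 10 contractile genes in large follicle replicates 1 to 3 (L1 to L3, red) and small follicle replicates 1 and 2 (S1 and S2, blue), with bars and points for single libraries and lines for group means. ACTA2, TAGLN and CNN1 sit higher in all large follicle libraries, MYH11 and LMOD1 sit lower, and the other 5 genes overlap.

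The filament actins had mean differences in opposite directions, both with 95% intervals that include 0. ACTA2 (gene 733615, Sscrofa11.1 chromosome 14, 100868145 to 100886732, minus strand), the actin of vascular smooth muscle, had 1858, 2433 and 2052 FPKM in large follicle replicates 1 to 3 and 1588 and 1603 FPKM in small follicle replicates 1 and 2. All 3 large follicle values lay above both small ones, but as a share of the FPKM sum large follicle replicate 1 (0.263%) lay below small follicle replicate 2 (0.286%). The means were 2114 ± 293 FPKM (SD, n = 3) and 1595 ± 10.7 FPKM (SD, n = 2), 1.33-fold higher in large, with a log2 fold change of 0.40 (SE 0.30, limma adjusted p = 0.742). Its 95% interval, -0.26 to 1.06, includes 0.

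ACTG2 (gene 100520667, chromosome 3, 69097366 to 69121542, minus strand), the actin of enteric smooth muscle, had 127, 347 and 196 FPKM in large and 288 and 323 FPKM in small follicles. Large follicle replicate 2 was the highest of all libraries and replicate 1 the lowest, so the groups overlapped. The means were 223 ± 112 (SD, n = 3) and 306 ± 24.9 FPKM (SD, n = 2), a log2 fold change of -0.57 (SE 0.36, 95% interval -1.38 to 0.24, limma adjusted p = 0.687). Leaving out large follicle replicate 2 gave -0.95 and leaving out large follicle replicate 1 gave -0.23, at limma adjusted p = 0.102 and limma adjusted p = 0.9998, and over 17 alternative settings it ran from 0.102 to 1. ACTA2 and ACTG2 encode near-identical proteins, and the sources used here do not say how the authors assigned fragments shared by such copies, so the split between the 2 actins is uncertain.

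The motor had lower heavy chain values in large follicles, while its light chain showed no shift beyond the spread. MYH11 (gene 100627924, chromosome 3, 7002667 to 7143093, plus strand), the smooth muscle myosin heavy chain, had 100.4, 166 and 172 FPKM in large and 247 and 239 FPKM in small follicles. The highest large follicle value stayed below the lower small one. The means were 146 ± 39.6 (SD, n = 3) and 243 ± 5.23 FPKM (SD, n = 2), 1.66-fold higher in small follicles, with a log2 fold change of -0.77 (SE 0.26, 95% interval -1.36 to -0.18, limma adjusted p = 0.309). Over the 17 alternatives the log2 fold change of MYH11 lay between -0.93 and -0.52, and its limma adjusted p between 0.147 and 0.721.

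MYL9 (gene 100157760, chromosome 17, 39788165 to 39795240, plus strand), the regulatory light chain, had 473, 592 and 368 FPKM in large and 462 and 346 FPKM in small follicles. The groups overlapped, and the highest MYL9 value of each group was in large follicle replicate 2 and small follicle replicate 1, the libraries with the fewest genes at 1 FPKM. The log2 fold change of MYL9 was 0.23 (SE 0.27, 95% interval -0.38 to 0.83, limma adjusted p = 0.868). MYLK (gene 396848, chromosome 13, 136509878 to 136809674, plus strand), the kinase that acts on MYL9, had 30.1, 45.6 and 57.7 FPKM in large and 54.8 and 72.4 FPKM in small follicles. Only large follicle replicate 3 exceeded a small follicle library. The means of MYLK were 44.5 ± 13.9 (SD, n = 3) and 63.6 ± 12.4 FPKM (SD, n = 2), a log2 fold change of -0.54 (SE 0.28, 95% interval -1.18 to 0.09, limma adjusted p = 0.577).

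Among the actin-binding proteins, transgelin and calponin had higher values and leiomodin lower ones in large follicles. TAGLN (gene 397021, chromosome 9, 44561756 to 44567385, plus strand), an early marker of smooth muscle, had 1682, 1519.9 and 1229 FPKM in large and 1034.6 and 1034.5 FPKM in small follicles. All large follicle values were above the small ones, whose near identity is closer than the counting error of 0.906% and 0.883% in those 2 libraries. The means were 1477 ± 229.5 (SD, n = 3) and 1034.6 ± 0.0729 FPKM (SD, n = 2), a log2 fold change of 0.50 (SE 0.28, 95% interval -0.12 to 1.12, limma adjusted p = 0.611). CNN1 (gene 396911, chromosome 2, 70183370 to 70190756, plus strand), which restrains the myosin motor, had 133, 174 and 122 FPKM in large and 109 and 108 FPKM in small follicles. The groups did not overlap, except as a share of the FPKM sum (0.0189% in large follicle replicate 1 and 0.0193% in small follicle replicate 2), and the log2 fold change of CNN1 was 0.38 (SE 0.22, 95% interval -0.11 to 0.87, limma adjusted p = 0.635). With quantile normalization the log2 fold changes were 0.10 for ACTA2, 0.19 for TAGLN and 0.32 for CNN1.

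LMOD1 (gene 110255660, chromosome 10, 24165293 to 24194823, minus strand), which nucleates actin filaments in smooth muscle, differed most among the 10. It had 15.8, 19.4 and 23.9 FPKM in large and 40.5 and 40.0 FPKM in small follicles, from 666, 710 and 913 fragments against 1410 and 1469. Every small follicle value was well above the highest large one. The means were 19.7 ± 4.03 (SD, n = 3) and 40.2 ± 0.332 FPKM (SD, n = 2), 2.04-fold higher in small follicles, with a log2 fold change of -1.01 (SE 0.23, 95% interval -1.53 to -0.49). This difference missed the threshold with all libraries (limma adjusted p = 0.0904). LMOD1 passed it in 1 of 17 alternatives, with large follicle replicate 3 left out (log2 fold change -1.15, limma adjusted p = 0.0360). Across the alternatives the log2 fold change lay between -1.16 and -0.87 and the limma adjusted p between 0.0360 and 0.387.

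The genes of the anchoring structures showed no difference beyond the spread. DES (gene 396725, chromosome 15, 121428539 to 121435426, plus strand), the intermediate filament of muscle, had 132, 195 and 118 FPKM in large and 117 and 126 FPKM in small follicles. Large follicle replicate 2 stood above the other 4 libraries. The log2 fold change of DES was 0.25 (SE 0.25, 95% interval -0.30 to 0.80, limma adjusted p = 0.828), and 0.04 without that library. SYNPO2 (gene 100525414, chromosome 8, 104677580 to 104844169, minus strand), an actin-binding protein of Z-discs and dense bodies, had 7.50, 5.49 and 9.81 FPKM in large and 6.51 and 10.4 FPKM in small follicles. The groups overlapped, and the lowest SYNPO2 value of each group was in the libraries that held the highest MYL9 values. The log2 fold change of SYNPO2 was -0.14 (SE 0.32, 95% interval -0.85 to 0.58, limma adjusted p = 0.937). SYNPO2 overlaps SEC24D on the opposite strand, which had 7.31 to 11.2 FPKM. Noncoding genes on the opposite strand overlap MYH11, LMOD1, MYL9 and MYLK, with at most 3.98 FPKM (LOC102157484, at MYLK). The kit keeps strand, but the sources used here do not say whether counting used it, so reads from such partners cannot be told apart.

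**Figure D2:**
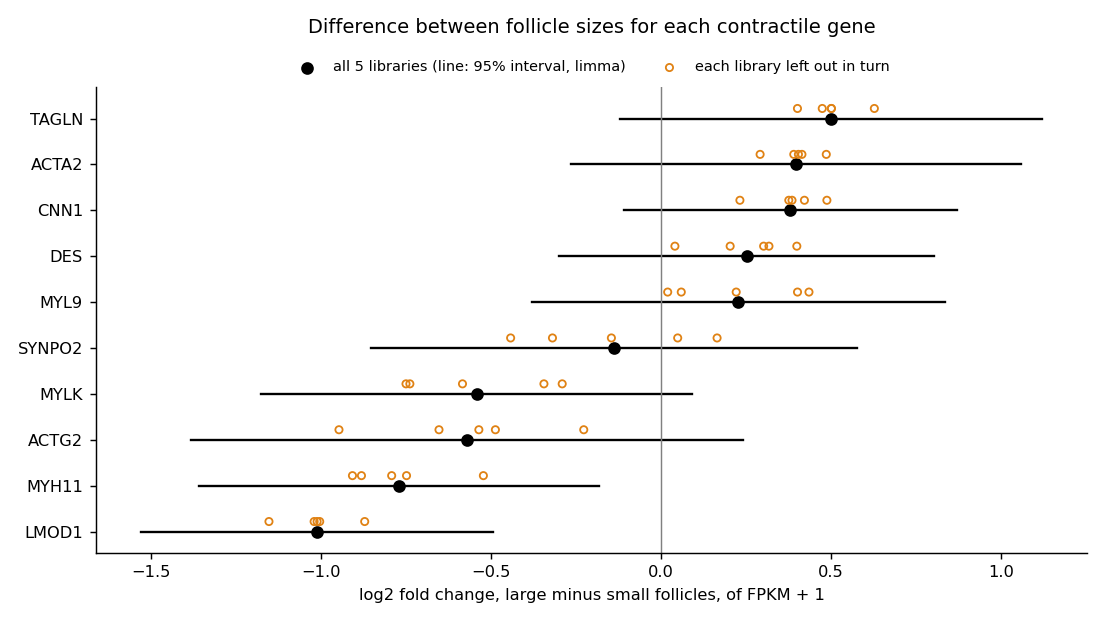
Log2 fold change of FPKM + 1 (horizontal axis, large minus small follicles) for each contractile gene (vertical axis), with black points and lines for the limma estimate and 95% interval over all 5 libraries and open orange circles for each library left out in turn. The intervals of LMOD1 (-1.53 to -0.49) and MYH11 (-1.36 to -0.18) lie below 0 without adjustment, and those of the other 8 genes include 0.

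Ratios within a library do not depend on how libraries are scaled to each other. ACTA2 over ACTG2 was 14.6, 7.02 and 10.5 in large follicle replicates 1 to 3 and 5.51 and 4.96 in small follicle replicates 1 and 2. The ratio was higher in every large follicle library, with means of 10.7 ± 3.80 (SD, n = 3) and 5.23 ± 0.392 (SD, n = 2). The ratios of ACTA2 to MYH11 and LMOD1 were chosen after the values had been seen and were not tested. Those of MYH11 to LMOD1 and MYH9, and of MYL9 to MYLK, were also outside the plan and not tested. ACTA2 over MYH11 was 18.5, 14.7 and 11.9 in large and 6.44 and 6.70 in small follicles, and ACTA2 over LMOD1 was 117, 125 and 86.0 against 39.2 and 40.1. ACTA2 had higher and MYH11 and LMOD1 lower FPKM in every large follicle library than in both small ones, so neither ratio could overlap. The means were 15.0 ± 3.30 (SD, n = 3) and 6.57 ± 0.185 (SD, n = 2) for MYH11. For LMOD1 they were 109.5 ± 20.8 (SD, n = 3) and 39.6 ± 0.592 (SD, n = 2). MYH11 over LMOD1 was 6.34, 8.53 and 7.21 in large and 6.09 and 5.98 in small follicles, without overlap. Its means were 7.36 ± 1.10 (SD, n = 3) and 6.04 ± 0.0801 (SD, n = 2).

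**Figure D3:**
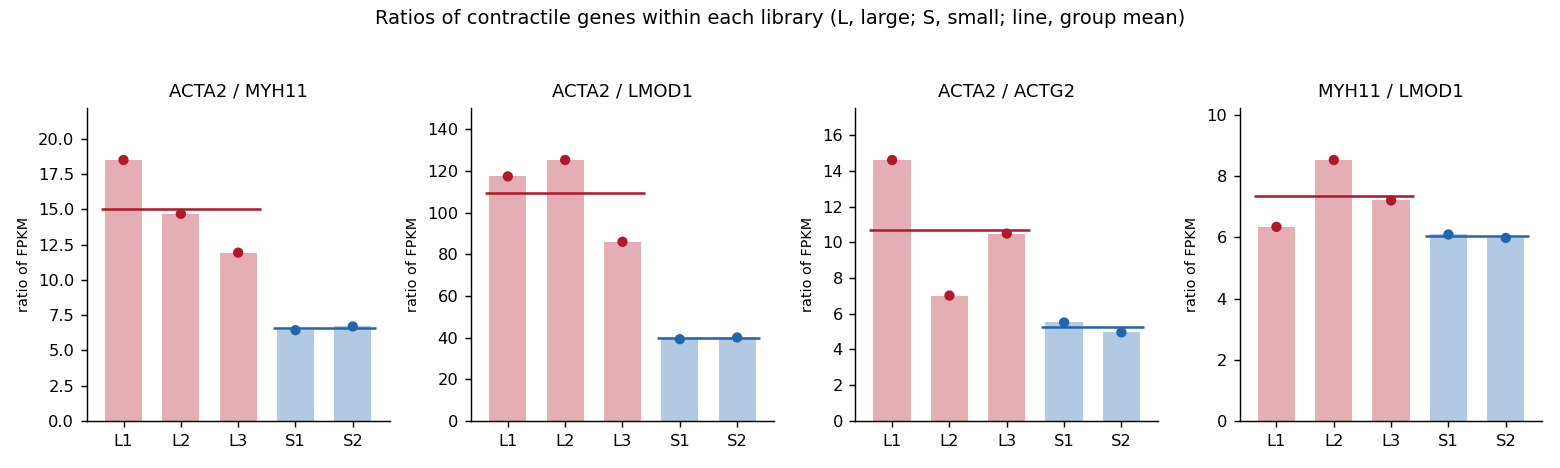
Ratios of FPKM within each library (vertical axes, linear from 0) for 4 pairs of contractile genes, in large (L1 to L3, red) and small (S1, S2, blue) follicle libraries, with lines at group means. ACTA2 over MYH11 runs from 11.9 to 18.5 in large and from 6.44 to 6.70 in small follicles. That separation follows from the opposite directions of both genes. MYH11 over LMOD1 stays between 5.98 and 8.53 in all 5 libraries.

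Regulators of the contractile program had lower values in large follicles in 10 of 12 cases, beside 60.1% of all genes tested, and none was called. Serum response factor (SRF) binds the promoters of most contractile genes, and myocardin (MYOCD) and the related factors MRTFA and MRTFB are its coactivators. In the list of 12 the median log2 fold change was -0.36 (-0.08 over all genes), and 0 were called by limma or voom. The list was not split into activators and repressors of contractile genes, so its count and median give no direction for their regulation. The median moved to -0.15 without small follicle replicate 2, with 4 higher and 8 lower, and to -0.22 without large follicle replicate 1. With quantile normalization the split was also 4 and 8. At an unadjusted limma p under 0.05 there were 2 of 12, MYOCD and FHL1, beside 10.4% of all genes. MYOCD had 0.528, 1.07 and 1.98 FPKM in large and 4.01 and 4.84 FPKM in small follicles, from 17, 30 and 58 fragments against 107 and 136. All large follicle values lay below both small ones. The means of MYOCD were 1.19 ± 0.734 (SD, n = 3) and 4.43 ± 0.584 FPKM (SD, n = 2), 3.71-fold higher in small follicles, with a log2 fold change of -1.36 (SE 0.33, limma adjusted p = 0.111). MYOCD passed the threshold with large follicle replicate 3 left out (log2 fold change -1.60, limma adjusted p = 0.0290) and, of 2 fits added after the data were seen, in the one that left out both large follicle replicate 2 and small follicle replicate 1 (log2 fold change -1.45, limma adjusted p = 0.0421). The other, which left out large follicle replicate 3 together with small follicle replicate 2, gave -1.49 (limma adjusted p = 0.130). Over the 16 alternatives for MYOCD the limma adjusted p ran from 0.0290 to 0.457.

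FHL1, a LIM-domain protein of muscle, had 105, 82.2 and 118 FPKM in large and 163 and 173 FPKM in small follicles. These groups did not overlap either, and its log2 fold change was -0.73 (SE 0.22, limma adjusted p = 0.209). FHL2, a LIM-domain protein that binds SRF, had the opposite direction, at 100.6, 107 and 97.5 FPKM against 82.7 and 73.5 FPKM, a log2 difference of 0.38 (SE 0.19, limma adjusted p = 0.555). TEAD3, a transcription factor of the Hippo pathway, had a log2 fold change of -0.60 (SE 0.29, limma adjusted p = 0.536). SRF itself had 11.2 to 13.6 FPKM in large and 10.6 to 15.0 FPKM in small follicles, with the groups overlapping.

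**Figure D4:**
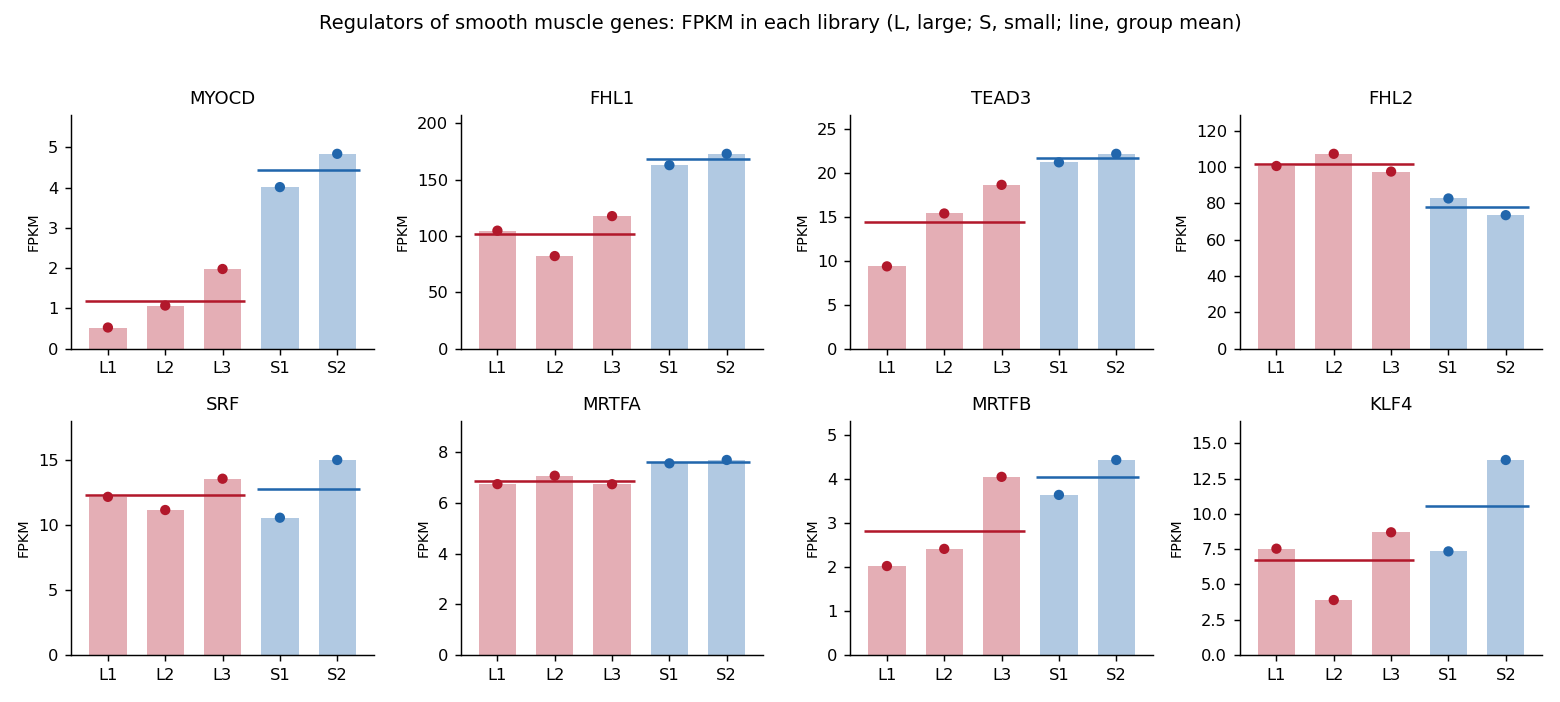
FPKM (vertical axes, linear from 0) of 8 of the 12 regulators in large (L1 to L3, red) and small (S1, S2, blue) follicle libraries, with lines at group means. MYOCD runs from 0.528 to 1.98 FPKM in large and from 4.01 to 4.84 FPKM in small follicles, FHL2 lies the other way, and SRF overlaps.

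Other genes of smooth muscle cells also went both ways. In a list of 25 further structural genes 9 had higher and 16 lower values (median log2 fold change -0.14), with 0 called by limma or voom and 3 at an unadjusted limma p under 0.05. Of all genes tested 60.1% had lower values and 10.4% were at that p, so the split is close to that of all genes. It was 6 and 19 scaled to a common FPKM sum, and the median was -0.06 without small follicle replicate 2 and -0.07 without large follicle replicate 1. PGM5, an adherens-type junction protein of muscle, had 12.6, 16.2 and 13.3 FPKM against 23.0 and 21.2 FPKM, a log2 difference of -0.62 (SE 0.23, limma adjusted p = 0.343), and the actin crosslinker FLNA had a log2 fold change of -0.52 (SE 0.23, limma adjusted p = 0.475). HSPB6, a small heat shock protein linked to relaxation, and PDLIM7, a PDZ-LIM protein on actin, had 0.64 ± 0.27 and 0.41 ± 0.21 (log2 fold change ± SE, limma adjusted p = 0.451 and 0.552). In 16 genes of contraction signalling 5 had higher and 11 lower values (median -0.21), with 0 called by limma or voom and 0 at an unadjusted limma p under 0.05. This split turned to 9 higher and 7 lower without small follicle replicate 2 (median 0.04) and was 1 and 15 without small follicle replicate 1 (median -0.47) or scaled to a common FPKM sum. PDE5A, which breaks down cyclic GMP, had the smallest p there, with a log2 fold change of -0.67 (SE 0.32, limma adjusted p = 0.519). Of 18 ion channels and agonist receptors 11 reached the filter, 9 with higher and 2 with lower values (median 0.14), and 0 were called by limma or voom. With no filter 11 of the 18 had higher and 7 lower values (median 0.05). The serotonin receptor HTR2A, the one member at an unadjusted limma p under 0.05, had 2.37, 2.70 and 2.81 FPKM in large and 1.02 and 1.32 FPKM in small follicles, with a log2 difference of 0.75 (SE 0.26, limma adjusted p = 0.325). Scaled to a common FPKM sum, 6 channels and receptors had higher and 5 lower values.

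The non-muscle counterparts, which serve the cytoskeleton of all cells, gave a reference for the actin and myosin values. Of 7 such genes 2 had higher and 5 lower values (median log2 fold change -0.10), and 1 was called, lower in large follicles. Over all genes tested 0.443% were called lower. With quantile normalization or a common FPKM sum all 7 had lower values. The called gene was TPM3, a tropomyosin, which had 133, 147 and 145 FPKM in large and 277 and 301 FPKM in small follicles. It was lower in large follicles, with means of 142 ± 7.92 (SD, n = 3) against 289 ± 17.2 FPKM (SD, n = 2), a log2 fold change of -1.02 (SE 0.20, limma adjusted p = 0.0487). The TPM3 call was lost in 14 of 17 alternatives, with limma adjusted p values from 0.0243 to 0.422 over the 17. MYH9, the non-muscle heavy chain, had a log2 fold change of -0.64 (SE 0.27, limma adjusted p = 0.457), in the same direction as MYH11, and MYH11 over MYH9 was 1.67 to 2.06 in large and 1.98 to 2.14 in small follicles. Those ranges overlapped. The 10 contractile genes summed to 0.929 to 1.08 times the non-muscle genes in large follicles and to 0.703 to 0.864 times in small ones.

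The contractile genes were also set beside markers of the cells that could carry or dilute them. Striated muscle as a source had little RNA here: of 19 marker genes 3 were at 0 in all libraries (MYL1, MYL2 and TNNT3), the actins ACTA1 and ACTC1 had at most 0.0626 and 0.245 FPKM, and the list summed to 18.0 to 19.0 FPKM in large and 8.65 to 12.9 FPKM in small follicles. Of its 6 tested genes 0 were called by limma or voom, and 3 of them (TNNT2, TNNI1 and TNNI2) reached the filter only through large follicles, so their direction is no result. With no filter 9 of 16 had higher and 7 lower values (median log2 fold change 0.03). TNNT1, a troponin, had the smallest p (log2 fold change 1.36, SE 0.32, limma adjusted p = 0.102, and 0.0417 with large follicle replicate 3 left out). Pericyte markers, from mural cells that share part of the contractile program, summed to 243 to 254 FPKM in large and 228 to 257 FPKM in small follicles. In that list 5 had higher and 4 lower values (median log2 fold change 0.25), and 0 were called by limma or voom. Of the 9 tested, 3 were at an unadjusted limma p under 0.05, beside 10.4% of all genes tested. HIGD1B, a marker of pericytes, had 0.65 ± 0.28, RGS5, which damps receptor signals in pericytes, had -0.81 ± 0.33, and NOTCH3, a receptor of mural cells, had -0.56 ± 0.24 (log2 fold change ± SE, limma adjusted p = 0.460, 0.426 and 0.455).

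Endothelial markers summed to 478 to 575 FPKM in large and 432 to 436 FPKM in small follicles. Of 12 such genes 10 had higher values (median log2 fold change 0.19), whereas 60.1% of all genes tested had lower ones. PECAM1, an adhesion protein of vessel walls, had a log2 fold change of 0.58 (SE 0.20, limma adjusted p = 0.309). The count of higher endothelial markers was 8 of 12 scaled to a common FPKM sum (median 0.07) and 7 of 12 without small follicle replicate 1. As a share of the FPKM sum the endothelial markers overlapped between the groups, with large follicle replicate 2 (0.0767%) below small follicle replicate 2 (0.0778%). Fibroblast and stromal markers had 9 of 11 higher (median log2 fold change 0.17; 6 of 11 scaled to a common FPKM sum or with quantile normalization), with sums of 4998 to 6871 FPKM against 4721 to 5021 FPKM. In both lists 0 were called by limma or voom, with 1 in each at an unadjusted limma p under 0.05, beside 10.4% of all genes tested. FBLN1, a matrix protein, was 1.96-fold higher in large follicles (limma adjusted p = 0.0956). LUM and PDGFRA, the 2 stromal markers with lower values, had log2 fold changes of -0.73 and -0.29 (limma adjusted p = 0.630 and 0.784). Of 8 theca interna markers 4 had higher and 4 lower values. HHIP, 1 of the 4 lower, reached the filter only through small follicles, so its direction is no result. The 1 called higher was CYP17A1, the androgen-forming enzyme, beside 0.535% of all genes tested. That count was 0 with no filter. The theca interna sums were 1846 to 3903 FPKM in large and 758 to 1098 FPKM in small follicles. Most of each sum came from CYP17A1 and INSL3. CYP17A1 had 726 to 2451 FPKM in large and 145 and 147 FPKM in small follicles. INSL3 had 646 to 1115 FPKM against 852 and 446 FPKM. Of 8 granulosa markers 2 had higher and 6 lower values. The 1 called lower was INHBB, an inhibin subunit, beside 0.443% of all genes tested. It had 121 and 343 FPKM in small follicle replicates 1 and 2. The count of granulosa markers called lower was 0 with no filter, with mean FPKM of at least 5 and without large follicle replicate 1. The granulosa sums were 5302 to 12653 FPKM against 3896 to 5323 FPKM. These sums overlapped between the groups. INHA, 1 of the 2 with higher values, made up 66.0% to 92.8% of the granulosa sum, which therefore says little of the 6 lower markers. The part of these cell types in the levels of the contractile genes was not tested.

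**Figure D5:**
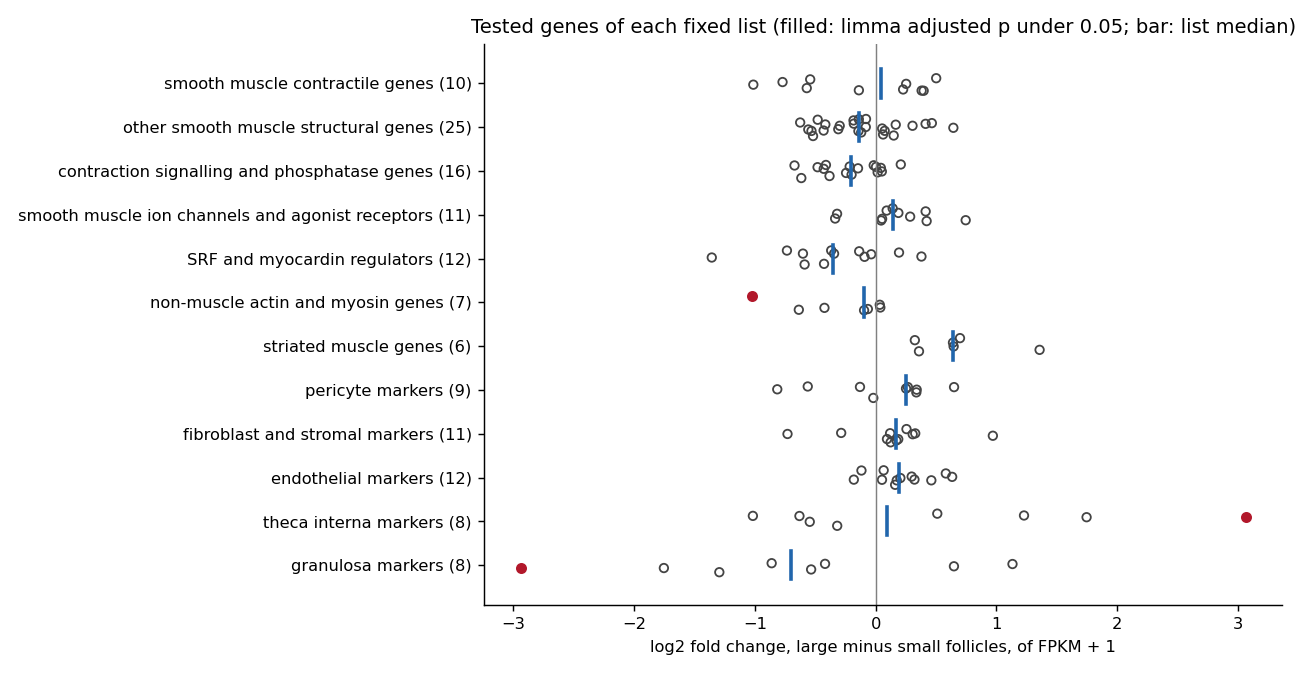
Log2 fold change of FPKM + 1 (horizontal axis, large minus small follicles) for the tested genes of each list (vertical axis, number tested in brackets), with 1 circle per gene, filled where limma's adjusted p was under 0.05, and a blue bar at each list's median. The contractile genes split around a median of 0.04, the regulators lie mostly below 0 (median -0.36), and TPM3 is the filled point among non-muscle genes.

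By a rule set on likeness alone, genes were ranked by the Pearson correlation of their log2(FPKM + 1) with the mean standardized value of the 10 contractile genes over the 5 libraries. Since the 10 genes go both ways, that mean mostly separates single libraries, from -0.42 in large follicle replicate 1 to 0.54 in large follicle replicate 2. Among 7536 candidates the highest correlations were those of RFTN1 (0.997), OGDH (0.995), IDH3B (0.990), AGPAT3 (0.988), SOX12 (0.982), DUS2 (0.978), INHBA (0.977), HGSNAT (0.9751), BCKDK (0.9749) and SURF4 (0.974). The correlations rest on 5 libraries and are given as a description.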

How the data were processed

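Gene expression was measured by RNA sequencing in 3 large and 2 small follicle libraries. The deposited values are FPKM, computed by the authors. Per the labels' protocols RNA was extracted with TRIzol and made into stranded paired-end mRNA libraries. Per the submitters' processing notes, featureCounts 1.5.0-p3, StringTie 1.3.3, HISAT2 2.0.5, Trimmomatic 0.38 and FastQC 0.11.4 were used with build Sscrofa11.1; their roles are not given. All 5 files carry identical gene annotation, and of their identifiers 30335 matched a RefSeq table of that assembly.

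From the FPKM, library totals were taken as the commonest inverse of FPKM times listed gene length. Whole fragments (tolerance 0.001) followed for 49.5% of expressed genes with the listed length and for the others with the smallest shorter length that gave whole numbers. For ACTA2, lengths of 647 and 1294 bases both did so, so its fragment number is uncertain and is not printed. FPKM values do not depend on this step.

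Genes at 1 FPKM or more in at least 2 libraries (13087) were fitted with limma 3.58.1 in R 4.3.3 on log2(FPKM + 1), with a mean-variance trend and follicle size as the single term. P-values were adjusted over all 13087 genes by the Benjamini-Hochberg method. Fold changes on this scale understate those of low genes. The fit was also run on simulated counts with a single dispersion for all genes and no deviations shared within a library. No conclusion on error rates in these data is drawn from that run. Counting errors are 100 divided by the square root of the fragments.

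The 10 genes and the 11 other lists were chosen with earlier results of these data known. All 10 genes are named, and of each other list up to 4 genes with the smallest p. Genes outside that rule (SRF, ACTA1, ACTC1, MYL1, MYL2, TNNT3, INHA, TNNT2, TNNI1, TNNI2, HHIP, INSL3 and those overlapping the 10 genes) were named after their values were seen. Of 159 list symbols 157 were found in the files, 7 of them through an older symbol or the files' description. Alternatives covered pseudocounts, filters, scalings, a replicate block, the variance trend, voom and left-out libraries. Protein and promoter sequences were not used here.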

Additional observations from a re-analysis of the deposited data

How the results depend on the processing

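Depth was no limit for the 10 contractile genes, whereas MYOCD rested on as few as 17 fragments; the numbers of libraries, 3 against 2, limit the precision of all tests. The count of contractile genes called stayed at 0 in 16 of 17 alternatives, and leaving out each library gave 0 to 1 called lower. The log2 fold change kept its direction in all alternatives for 8 of the 10. SYNPO2 reversed to 0.05 without large follicle replicate 2 and to 0.16 without small follicle replicate 2, within a range of -0.44 to 0.16 with each library left out. Of 2 fits added after seeing the data, 1 left out large follicle replicate 2 with small follicle replicate 1 (added fit A) and 1 left out large follicle replicate 3 with small follicle replicate 2 (added fit B). Where 1 small follicle library remained, it was assumed to vary like the large ones. DES reversed to -0.0086 in fit A, was 0.45 in fit B and lay between 0.04 and 0.40 with each library left out. The cause was not tested.

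Over all genes, 70 higher and 58 lower became 15 and 17 with no filter, 31 and 10 with a filter on mean FPKM at 5, where fewer genes were tested, 39 and 31 with voom, 123 and 87 with median-of-ratios scaling and 118 and 83 with quantile normalization. Leaving out each library gave 23 to 163 higher and 6 to 105 lower, and fits A and B gave 157 and 233, and 73 and 40. In fit A, and in the range of 0 to 1 with each library left out, 1 regulator (MYOCD) was called lower. The 1 non-muscle gene called lower (TPM3) became 0 with either other pseudocount, either other filter, median-of-ratios scaling, no variance trend, voom, the replicate block and both added fits, and 0 to 1 with each library left out.

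The labels do not say that a replicate number marks a pair. Deviations of same-numbered libraries from their group means had correlations of -0.00148 and -0.449, but the 2 small follicle libraries deviate as mirror images, so such values say little, and the numbers were not taken as pairs. With a replicate block 82 genes were called higher and 75 lower, with 92 of the 128 genes among them, and 0 of the 10 contractile genes were called. Replicate 3 exists only among large follicles, so the block in effect sets that library aside. Its log2 fold changes are those without large follicle replicate 3 (median over all genes -0.16 in both), so the 2 alternatives are not separate checks of direction. Under the block ACTB, without a call in any fit, reversed to 0.0011; it was 0.0011 without large follicle replicate 3 and 0.0043 without small follicle replicate 2, -0.27 in fit A and 0.10 in fit B.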

Other observations

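Large follicle replicate 1 had the lowest value of all 5 libraries for 4 of the 10 contractile genes, ACTG2, MYH11, LMOD1 and MYLK, and the highest for TAGLN, at 1682 FPKM. No share over all genes is set beside that count, which is a description only. In large follicle replicate 1 the ratio of MYL9 to MYLK was 15.7, against 12.96 and 6.37 in the other large follicle libraries and 8.43 and 4.78 in the small ones. The spread of the 10 genes across libraries, as highest over lowest value, ran from 1.53 for ACTA2 to 2.73 for ACTG2.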
